A study of Mus musculus with 26 samples.

Results

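The genes described here are the calcium pumps, calcium exchangers and calcium store channels of mouse caudate putamen. They are 10 genes chosen by symbol: the plasma membrane pumps Atp2b1, Atp2b2 and Atp2b3, the endoplasmic reticulum (ER) pump Atp2a2, the exchangers Slc8a2 and Slc24a2, the store release channels Itpr1, Ryr2 and Ryr3, and the store sensor Stim1. All 10 are listed, with 1 transcript each, in every table: that for GS LRRK2 TG mice holds 8576 transcripts, that for GS/DA LRRK2 TG mice 8576 and that for LRRK2 KO mice 9561.

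Neurons keep cytosolic calcium low with ATP-driven pumps in the plasma membrane and in the ER, and with exchangers that move calcium out of the cell in return for sodium. Calcium held in the ER is released through inositol trisphosphate receptors and ryanodine receptors, and a sensor in the ER membrane opens calcium channels of the plasma membrane when the store runs low. In striatal neurons these proteins shape the calcium signals that follow synaptic input.

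The study asked by ribosome profiling whether LRRK2, a kinase altered in some familial Parkinson's disease, changes translation in this tissue. Footprinting sequences the mRNA fragments that ribosomes protect from nuclease, RNA-Seq measures the RNA of the same kind of sample, and translational efficiency (TE) is the footprinting value divided by the RNA-Seq value. The mice were 3 months old by their labels and of the C57BL/6 strain. GS LRRK2 TG mice carried a G2019S LRRK2 transgene, and GS/DA LRRK2 TG mice a G2019S/D1994A LRRK2 transgene whose product is kinase dead. Both transgenes were doxycycline-regulated, were switched on by a CaMKII-tTA driver that is active in forebrain neurons, came from a single high copy number line each, and were held off by doxycycline until weaning. Their comparison group was non-TG control, labelled wild-type. LRRK2 KO mice were compared with WT mice. Each library came from pooled caudate putamen of mice of mixed sex.

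Each deposited value is a mean of normalized reads over libraries, given for 4 columns in each of the 3 tables, and the reads of single libraries were recovered in all 12 columns. Of these, 10 are means of 2 libraries. Both columns labelled non-TG control in the GS LRRK2 TG table, 1 for each assay, are means of 5 libraries: the 4 libraries of the other transgenic table in that assay, 2 of non-TG control and 2 of GS/DA LRRK2 TG, and 1 further library. Differences between transcripts in which those 4 libraries cancel were whole multiples of 1 step in 300 of 300 cases for footprinting and 155 of 155 for RNA-Seq, where any other 4 of the 6 libraries recovered from both tables gave at most 6% and 5.61%. The further library is taken here as the remaining non-TG control, because the column carries that label and the labels list 3 such samples for each assay. This control column, which thus includes mice with the GS/DA transgene, is called the mixed control. Differences of GS LRRK2 TG from the 3 non-TG control libraries alone are given beside those from the mixed control, and were added after the data were seen. Recovered libraries of the transgenic tables held 7485949 to 20284153 footprints and 7838198 to 14599278 RNA-Seq reads in the CDS, with 7588096 and 7838198 in the further library. Those of the LRRK2 KO table held fewer footprints, 2927913 to 6169622, and 3206699 to 10944593 RNA-Seq reads, a range that overlaps that of the transgenic tables. Which samples enter each column is not stated. The labels also list 3 footprinting samples each of WT and LRRK2 KO, the third of which belongs to a further experiment. Both transgenic comparisons share control libraries and are given side by side only. The series calls its replicates biological, and p-values measure the spread between these pooled samples, not between single mice.

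Within a table, the ratio of both libraries of the control ran parallel, across transcripts, to the ratio of both libraries of the genotype. For GS/DA LRRK2 TG and its control, Spearman's rho between these ratios was 0.74 for footprinting and 0.977 for RNA-Seq, and for LRRK2 KO and WT it was 0.757 and 0.682, over transcripts that are not independent replicates. Libraries were matched by this likeness and are called library set 1 and library set 2, a match that the labels do not give. The libraries of GS LRRK2 TG were placed in the sets by their likeness to the control libraries recovered for GS/DA LRRK2 TG (rho 0.625 and 0.978). The further library was placed in set 1, as the SD of its log2 ratio to the non-TG control library was 0.197 for set 1 and 0.292 for set 2 in footprinting, and 0.317 and 1.65 in RNA-Seq. On the scale of the GS LRRK2 TG table, values of the 3 non-TG control libraries are given in the order of the first library of set 1, the further library and the library of set 2. The sets differed most in the RNA-Seq of the transgenic tables, where the SD of the log2 ratio of set 1 to set 2 was 1.47 to 1.77. Their footprinting sets were closer, with an SD of 0.292 to 0.373, and in the LRRK2 KO table the SD was 0.734 and 0.741 for footprinting and 0.675 and 0.616 for RNA-Seq.

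Lrrk2 was examined first as a check of the genotypes (transcript uc007xhz.1, chromosome 15, 91503606 to 91646551, plus strand, mm9). Its footprinting values were 690 and 400 normalized reads in the WT libraries and 150 and 102 in the LRRK2 KO libraries, in the order of sets 1 and 2. RNA-Seq gave 733 and 1278 in WT and 270 and 423 in LRRK2 KO. Both LRRK2 KO libraries lay below both WT libraries in either assay, with log2 differences of the group means of -2.12 and -1.54. In GS/DA LRRK2 TG the Lrrk2 footprinting values were 4766 and 7267, against 1224 and 1445 in non-TG control, a log2 difference of 2.17. The GS LRRK2 TG libraries gave 3320 and 7052, against 970, 962 and 1145 in the 3 non-TG control libraries, without overlap. Their log2 difference was 2.34, from 1.70 to 2.78 over leaving out single libraries. The mixed control mean was 2524, with 3779 and 5763 in its GS/DA LRRK2 TG libraries, and the difference from it was 1.04, or 0.40 without the GS LRRK2 TG library of set 2. Lrrk2 RNA-Seq spread widely between the sets of the transgenic tables, with 560 and 5233 in non-TG control and 404 and 5038 in GS/DA LRRK2 TG, a log2 difference of -0.09. It was 214 and 3550 in GS LRRK2 TG against 501, 414 and 4717 in non-TG control, a difference of 0.00 between the means and of -1.09 and -0.41 within the sets. The difference from the mixed control mean of 2105 was -0.16, and it was 0.75 without the GS LRRK2 TG library of set 1 and -3.30 without that of set 2. Within the sets, Lrrk2 RNA-Seq was thus not above non-TG control in GS LRRK2 TG or in GS/DA LRRK2 TG (-0.47 and -0.05). The transgenes were seen in footprinting and not in RNA-Seq, and the reason was not tested.

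Levels of the 10 genes are compared as normalized reads per kb of CDS. In both non-TG control libraries of the comparison with GS/DA LRRK2 TG, footprinting was highest for Atp2a2, with 6135 and 4700 reads per kb in sets 1 and 2, and for Atp2b1, with 5566 and 4721. These overlapped each other, and Atp2b2 came next with 3454 and 2368. Slc8a2 (1831 and 1556) and Slc24a2 (1865 and 1511) could not be ordered by their libraries and stood above Itpr1 (1388 and 1137). Stim1 (631 and 481) and Atp2b3 (620 and 445) also overlapped. Ryr2, with 98 and 92 footprints per kb, and Ryr3, with 46 and 40, were far below the others. Among all transcripts, the footprints per kb of this control placed Atp2a2 at percentile 94.0, Atp2b1 at 93.6, Ryr2 at 6.3 and Ryr3 at 0.9.

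RNA-Seq gave another order in the same control. Atp2a2 was again first by its mean, with 3648 and 4667 reads per kb, but its set 1 library lay below the set 2 library of Atp2b1. Itpr1 (2202 and 3495), Atp2b1 (1629 and 4036), Atp2b2 (3333 and 2013) and Slc8a2 (2366 and 763) overlapped from each to the next. Stim1 had 982 and 899 reads per kb, Slc24a2 350 and 867, Atp2b3 403 and 450, Ryr3 80 and 184, and Ryr2 54 and 202. Slc24a2 thus moved from the level of Slc8a2 in footprinting to below Stim1 in RNA-Seq, where the libraries of Slc24a2 and Stim1 did not overlap. Itpr1, in the middle of the footprinting order, came after Atp2a2 by its RNA-Seq mean of 2848 against 2833 for Atp2b1, but it was second in neither set, with Atp2b2 and Slc8a2 also above it in set 1 and Atp2b1 in set 2. In WT, whose table was normalized separately, Atp2a2 was again first and Ryr3 last in footprinting, with means of 1238 and 19 reads per kb, and the libraries of neighbours overlapped except between Itpr1 and Atp2b3 and between Ryr2 and Ryr3.

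These orders meet in TE. From the group means, Slc24a2 had the highest log2 TE of the 10 genes in all 6 groups: 1.37 in the mixed control against 1.31 in GS LRRK2 TG, 1.47 in control against 1.34 in GS/DA LRRK2 TG, and -0.05 in WT against 0.53 in LRRK2 KO. Its percentile among all transcripts was 97.8 and 95.1, 97.1 and 97.3, and 85.2 and 95.4 in the same order. Ryr3 had the lowest in all 6 groups, with -1.71 and -1.29, -1.62 and -1.77, and -2.29 and -2.48. In the 3 non-TG control libraries alone, on the scale of the GS LRRK2 TG table, these genes were also highest and lowest, with 1.52 and -1.54. Itpr1 lay between -1.51 and -0.94 and Stim1 between -1.48 and -0.76 over the 6 groups, below the table medians, which ran from -0.64 to 0.04. Ryr2 differed between tables in its place: its percentile was 37.7 in the mixed control (45.0 in the 3 non-TG control libraries) against 29.9 in GS LRRK2 TG, 27.4 in control against 31.1 in GS/DA LRRK2 TG, and 83.7 in WT against 76.9 in LRRK2 KO. Both kinds of library were made from the same lysates, but which recovered footprinting library goes with which RNA-Seq library is not settled here, so TE per library is a range over 4 combinations. In the control of GS/DA LRRK2 TG it ran from 0.80 to 2.41 for Slc24a2 and from 0.23 to 1.77 for Atp2b1, and from -2.19 to -0.82 for Ryr3 and from -1.62 to -0.67 for Itpr1. Slc24a2 and Ryr3 did not overlap each other there, but each overlapped its neighbour in the order. In WT they did overlap, with -1.12 to 1.18 for Slc24a2 and -3.43 to -0.85 for Ryr3. The order of the group means did not hold in each combination: of 20 over the 5 groups of 2 libraries, Slc24a2 was highest in 10, Slc8a2 in 6, all with RNA-Seq of set 2 in the transgenic tables, and Ryr2 in 4, all with footprinting of set 1 in WT or LRRK2 KO. Ryr3 was lowest in 13, Stim1 in 6 and Slc8a2 in 1.

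**Figure D1:**
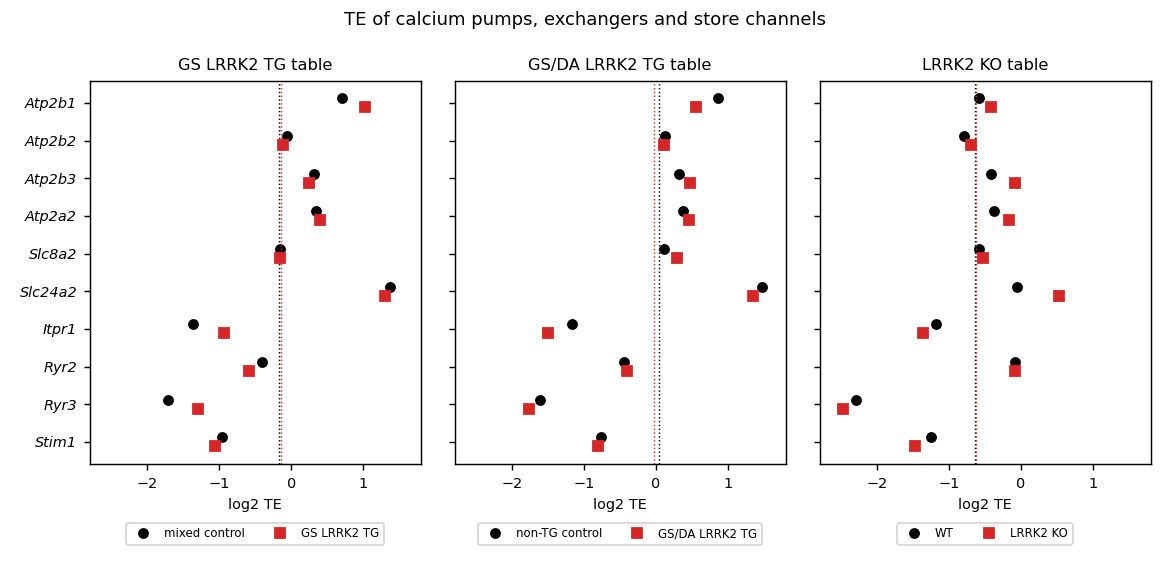
Log2 TE of each of the 10 genes in 3 panels, 1 for each genotype with its control, from the deposited means, with black circles for control (the mixed control of 5 libraries for GS LRRK2 TG, non-TG control for GS/DA LRRK2 TG, WT for LRRK2 KO) and red squares for the genotype. Dotted lines mark the median over all transcripts of the table, in the colour of the group; Slc24a2 is farthest right in every group and Ryr3 farthest left.

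The bases around the start codon are shown for the gene of highest TE by the group means and for 3 others, from the transcripts of the NCBIM37 annotation, 5′ to 3′, with the start codon in capitals.
Slc24a2: aaagcaaggATGg
Atp2b1: atccttgtgATGg
Itpr1: aacacggacATGt
Stim1: cctaccgtcATGg
A purine 3 bases before the start codon, the base best known to favour initiation in mammals, was present in 8 of the 9 genes with a context, and in 86.5% of 7885 transcripts of the GS/DA LRRK2 TG comparison. A purine there together with a G after the start codon was present in 7 of 9, against 45.5% of these transcripts. Of these 9 genes only Slc8a2 lacks the purine and only Itpr1 the G, and Ryr3 had no context in the annotation used here. The deposited folding energy of the 5′UTR ran from -316.7 kcal/mol for Atp2a2 to -52.05 kcal/mol for Slc8a2 (Atp2b2 -298.5, Stim1 -295, Ryr2 -287.1), and the genes at both ends of that TE order lay between these, with -154.2 for Slc24a2 and -208.4 for Ryr3.

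By group means, the 10 genes as a list had median differences near those of all transcripts. Their median log2 difference of GS LRRK2 TG from the mixed control was -0.03 for footprinting, -0.07 for RNA-Seq and -0.03 for TE, beside 0.00, -0.02 and 0.02 over all transcripts. From the 3 non-TG control libraries it was -0.01, -0.05 and -0.02, beside 0.01, -0.01 and 0.01, and with the library sets weighted equally 0.03, -0.07 and 0.06, beside 0.00, 0.00 and 0.01. For GS/DA LRRK2 TG the medians were 0.00, 0.03 and -0.03, beside -0.01, 0.06 and -0.05. In LRRK2 KO they were 0.06, -0.01 and 0.07, beside 0.02, 0.01 and 0.02. Leaving out single libraries shifted these medians by more than their size: without the GS LRRK2 TG RNA-Seq library of set 2 that of RNA-Seq was -0.86, beside -0.01 over all transcripts, and without the LRRK2 KO footprinting library of set 2 that of footprinting was -0.78, beside -0.01. Such a loss leaves a group of 2 libraries in a single set and the other group in both, so these shifts include the difference between sets. Within set 1 of GS LRRK2 TG and non-TG control, the list median was -0.37 for RNA-Seq and 0.29 for TE, beside -0.02 and 0.03. There 6 genes were past the RNA-Seq cutoff described below, downward, as were 25.5% of all transcripts. In set 2 these medians were 0.03 and 0.06, beside -0.02 and 0.02. For GS/DA LRRK2 TG the RNA-Seq median was -0.19 in set 1 and 0.16 in set 2, beside 0.00 and 0.05.

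Single genes were counted as past a cutoff where the z score of the TE difference over all transcripts was at least 1.5 in size, or where footprinting or RNA-Seq differed by at least 0.32 on the log2 scale. With GS LRRK2 TG against the mixed control, 2 of the 10 genes, Itpr1 and Ryr3, were past the TE cutoff upward and 0 downward, where 8.02% and 3.91% of all transcripts were. None was past the fold cutoff in footprinting, as were 2.47% of all transcripts in either direction. In RNA-Seq 3 genes, Atp2b1, Itpr1 and Ryr3, were past it downward (9.55% of all transcripts) and 0 upward (1.69%). Against the mean of the 3 non-TG control libraries, 0 genes were past the TE cutoff upward (6.11%) and 1, Ryr2, downward (5.74%). There 0 were past the footprinting cutoff (5.09% in either direction), and in RNA-Seq Ryr2 was past it upward (5.15%) and 0 genes downward (5.51%). That mean holds 2 libraries of set 1 and 1 of set 2, while the GS LRRK2 TG mean holds 1 of each. The mixed control holds these 3 and a GS/DA LRRK2 TG library of each set, so it too has more of set 1 than of set 2. With the sets weighted equally, 1 gene, Ryr3, was past the TE cutoff upward (7.09%) and 0 downward (4.91%), and 0 were past the footprinting cutoff (4.06% in either direction). In RNA-Seq Atp2b1, Itpr1 and Ryr3 were then past it downward (11.1%) and 0 genes upward (4.28%). For GS/DA LRRK2 TG 0 of 10 were past the cutoffs for TE (11% of all transcripts in either direction), footprinting (3.14%) or RNA-Seq (9.6%). In LRRK2 KO, Slc24a2 alone was past the TE cutoff upward (6.23%) and 0 genes downward (6.02%), and 0 were past the footprinting cutoff (8.1% in either direction). In its RNA-Seq 1 gene, Ryr3, was past the fold cutoff upward (5.9%) and 2, Atp2b3 and Slc24a2, downward (8.39%). With 10 genes these counts are descriptions, and no test was made of the list.

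The counts depended on single libraries in GS LRRK2 TG and on whole sets in the other comparisons. Their loss also moved the share of all transcripts past a cutoff. Loss of a library from a group of 2 leaves that group in a single set, so such counts include the difference between sets. Loss of single libraries was not counted for GS/DA LRRK2 TG and LRRK2 KO. Without the LRRK2 KO footprinting library of set 2 the list median was -0.78, so more genes passed the footprinting cutoff than the counts below give. Without the GS LRRK2 TG footprinting library of set 1, or without its RNA-Seq library of either set, 0 genes were past the TE cutoff upward, where 6.68% of all transcripts were in the first case and 8.57% and 9.43% without RNA-Seq of set 1 and set 2, and without the RNA-Seq library of set 1 Ryr2 was past it downward (1.64%). Of the mixed control, loss of the footprinting of non-TG control in set 1 put Atp2b1 past the TE cutoff upward beside Itpr1 and Ryr3 (7.99%), and loss of that of non-TG control or GS/DA LRRK2 TG in set 2 left Ryr3 alone (7.74% and 7.59%). Without the RNA-Seq of non-TG control in set 2, 0 genes were past it upward (5.16%) and Ryr2 downward (6.17%), and past the RNA-Seq cutoff were Ryr2 upward (7.96%) and Itpr1 downward (10.3%). Without the RNA-Seq of GS/DA LRRK2 TG in set 2, 0 were past the TE cutoff upward (4.72%) and Ryr2 and Slc24a2 downward (7.06%), and the same genes were past the RNA-Seq cutoff upward (11.7%) and 0 downward (7.75%). The RNA-Seq cutoff was passed by 5 genes without the GS LRRK2 TG library of set 1, as it was by 65.1% of all transcripts, and by 8 without that of set 2, as by 72.4%, shares near those of the list. Atp2b2 was past the footprinting cutoff without the GS LRRK2 TG library of set 1, with 17.8% of all transcripts. Counts from the 3 non-TG control libraries moved as well. Without their first RNA-Seq library of set 1, Ryr3 was past the TE cutoff upward (7.02%) and 0 genes downward (4.7%). Atp2b1, Itpr1 and Ryr3 were then past the RNA-Seq cutoff downward (9.37%). Without the GS LRRK2 TG footprinting library of set 1, Atp2b1 and Atp2b2 were past the footprinting cutoff downward (11.9%). Without its RNA-Seq library of set 2, 8 genes were past the RNA-Seq cutoff (67.8%). When set 1 of footprinting was left out of the GS/DA LRRK2 TG comparison, Atp2b3 and Slc8a2 were past the TE cutoff upward (4.17% of all transcripts) and Atp2b1 downward (6.73%), and Atp2b1 and Slc8a2 past the footprinting cutoff (6.29%). Leaving out set 1 of RNA-Seq there put Itpr1 past the TE cutoff downward (7.76%) and past the RNA-Seq cutoff (25.5%), and leaving out set 2 put Atp2b1 and Ryr3 past the latter (16.3%). With LRRK2 KO, the count past the TE cutoff upward was 0 without set 2 of footprinting (5.75%) or set 1 of RNA-Seq (6.13%), and Stim1 was past it downward without set 2 of footprinting (5.94%). The RNA-Seq cutoff was passed by 0 genes without set 1 (8.4%) and 5 without set 2 (43.7%), and the footprinting cutoff by Atp2b1 and Slc24a2 without set 1 (22.3%) and by Stim1 without set 2 (21.3%). With means of log2 values, Ryr3 alone was past the TE cutoff upward in GS LRRK2 TG (7.83%). In LRRK2 KO 0 genes were past it upward (5.89%) or downward (6.32%) with these means, and of the RNA-Seq differences there that of Ryr3 alone was past its cutoff (14.7% of all transcripts in either direction).

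The test across transcripts was limma on the recovered libraries. Without a term for the library sets it called, for GS/DA LRRK2 TG, 0 of 8464 transcripts (0%) in footprinting, RNA-Seq or TE, with 142, 0 and 0 at an unadjusted p under 0.05. In LRRK2 KO it called 0 of 9531 (0%) in each, with 6, 6 and 2 at an unadjusted p under 0.05. For GS LRRK2 TG and the 3 non-TG control libraries it called 0 of 8463 (0%) in each, with 241, 0 and 0. No gene of the list was among these. The median standard error of the 10 genes was 0.17 for footprinting, 0.71 for RNA-Seq and 0.80 for TE in GS/DA LRRK2 TG, 0.65, 0.45 and 0.92 in LRRK2 KO, and 0.14, 0.66 and 0.72 in GS LRRK2 TG, on the log2 scale. Differences of the sizes seen here in RNA-Seq and TE were not detectable with these errors. With the library sets as a term, limma called 169 transcripts (2%) in the footprinting of GS/DA LRRK2 TG, Atp2b1 among them. With the opposite matching of libraries it called 7, and Atp2b1 was not called. The sets were matched by likeness in these same data, so a smaller error with them is partly built in. The opposite matching is therefore no independent check. Both of these footprinting fits had 1 residual degree of freedom. For GS LRRK2 TG against the 3 non-TG control libraries, the fit with library sets called 3 transcripts in footprinting (0.0354%), 0 in RNA-Seq (0%) and 1 in TE (0.0118%), with 775, 1344 and 983 at an unadjusted p under 0.05. Lrrk2 was called in footprinting (log2 difference 2.13, standard error 0.14, adjusted p = 3.62e-05) and TE, and the others in footprinting were Ddit4l and Gm1337, named after their values were seen. The RNA-Seq difference of Lrrk2 in the fit with library sets was -0.78 and not called, so its TE call is not read as a rise in translation. Of the 10 genes 0 were called there, with smallest adjusted p of 0.494, 0.149 and 0.415 and median standard errors of 0.09, 0.15 and 0.18. At an unadjusted p under 0.05 were Slc8a2 in footprinting, Atp2b1, Itpr1 and Ryr3 in RNA-Seq, and Atp2b1 and Ryr3 in TE. With the opposite matching 0 transcripts were called in GS LRRK2 TG, with 108, 0 and 0 at an unadjusted p under 0.05.

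**Figure D2:**
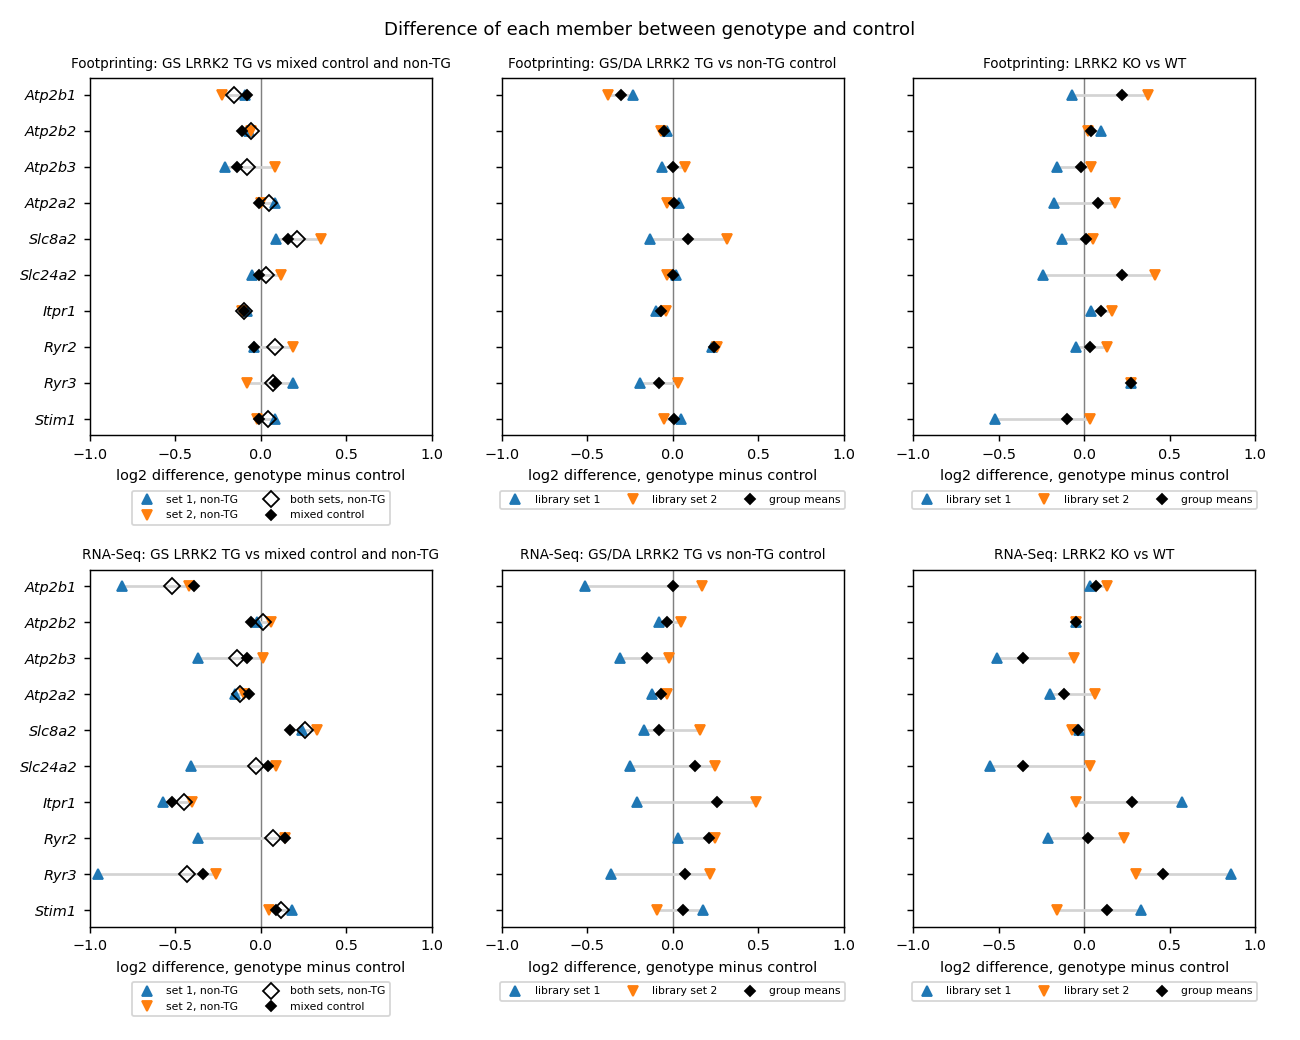
Log2 differences in footprinting (top row) and RNA-Seq (bottom row) of each gene between genotype and control, in a column of panels for each genotype. Triangles are differences within library sets 1 and 2, joined by a grey line, and black diamonds those of the deposited means, while for GS LRRK2 TG the triangles and the open diamonds (both sets weighted equally) are differences from the non-TG control libraries and the black diamonds from the mixed control; in RNA-Seq the sets gave -0.81 and -0.42 for Atp2b1 in GS LRRK2 TG and -0.51 and 0.17 in GS/DA LRRK2 TG.

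Of the plasma membrane pumps, Atp2b1 is expressed in most tissues (transcript uc007gxf.2, chromosome 10, 98377786 to 98488777, plus strand, mm9). Its footprinting values were 20454 and 17350 normalized reads in sets 1 and 2 of non-TG control, and 17402 and 13325 in those of GS/DA LRRK2 TG. The genotype was lower in both sets, by log2 differences of -0.23 and -0.38, but its library of set 1 lay above the control library of set 2, so the groups overlapped. Without a term for the sets the difference was -0.31 with a standard error of 0.17 (limma, adjusted p = 1). With that term it was -0.31 with a standard error of 0.04 (limma, adjusted p = 0.00754), and with the opposite matching the adjusted p was 1. The fit with the sets had 1 residual degree of freedom, and its sets were matched by likeness in these same data. In each of these columns 2 pairs of whole reads gave the deposited mean of Atp2b1. Only the pairs used here leave whole reads of the further library in the mixed control: the others miss by 0.00529 to 0.173 reads, where no transcript with 1 pair misses by over 1.6e-05. Over leaving out single libraries or sets the difference stayed negative, from -0.50 to -0.12, and scaled to total CDS reads it was -0.42, past the fold cutoff, a scaling that moved the median of all transcripts by -0.12.

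In the other comparisons Atp2b1 footprinting showed smaller or opposite differences. GS LRRK2 TG had 14273 and 11689 against 16210, 14256 and 13739 in the non-TG control libraries, with overlap and a log2 difference of -0.18, and of -0.08 from the mixed control mean of 13714. WT had 2683 and 4567 and LRRK2 KO 2560 and 5882, a log2 difference of 0.22 between the means and of -0.07 and 0.37 within the sets. The RNA-Seq of Atp2b1 spread widely between libraries. It was 5986 and 14834 in non-TG control and 4211 and 16640 in GS/DA LRRK2 TG, whose means differed by 0.00. GS LRRK2 TG had 2770 and 9969 RNA-Seq reads against 5355, 4359 and 13372 in non-TG control. Within each set it was thus below the control, by -0.81 and -0.42, although the groups overlapped across sets. Its difference was -0.27 from the mean of the 3 libraries, -0.52 with the sets weighted equally and -0.39 from the mixed control mean of 8365, the last being 0.25 without the GS LRRK2 TG library of set 1. In limma with the sets as a term it was -0.64 (standard error 0.14, adjusted p = 0.149) and not called. WT had 6617 and 4205 and LRRK2 KO 6740 and 4589, a difference of 0.07. The TE difference of Atp2b1 was 0.31 in GS LRRK2 TG from the mixed control (z 1.21) and 0.09 from the 3 non-TG control libraries, -0.30 in GS/DA LRRK2 TG (z -1.30), where means of log2 values gave -0.14, and 0.15 in LRRK2 KO.

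Atp2b2, a pump known for fast calcium extrusion and abundant in neurons (uc009dhn.1, chromosome 6, 113695663 to 113992607, minus strand), and Atp2b3, a pump found mainly in brain (uc009tlz.1, chromosome X, 70748425 to 70816344, plus strand), were close to control in footprinting. Atp2b2 had 13454 and 9223 footprinting reads in non-TG control and 13156 and 8779 in GS/DA LRRK2 TG, with 9530 and 7025 in GS LRRK2 TG against a mixed control mean of 8939, and 1530 and 4104 in WT against 1639 and 4166 in LRRK2 KO. Its log2 differences were -0.05, -0.11 and 0.04, each smaller than the gap between the libraries of a group. Atp2b3 had 2419 and 1738 in non-TG control and 2319 and 1830 in GS/DA LRRK2 TG, with 1544 and 1451 in GS LRRK2 TG against a mixed control mean of 1649, and 285 and 718 in WT against 255 and 737 in LRRK2 KO. The footprinting difference of Atp2b3 was -0.14 in GS LRRK2 TG, and 0.00 and -0.02 in the other comparisons. From the non-TG control libraries of sets 1 and 2, GS LRRK2 TG differed by -0.21 and 0.08 for Atp2b3 and by -0.07 and -0.06 for Atp2b2. In the RNA-Seq of LRRK2 KO, Atp2b3 was past the fold cutoff: 922 and 420 in WT and 646 and 402 in LRRK2 KO, a log2 difference of -0.36. Set 1 gave -0.51 and set 2 -0.06, without the WT library of set 1 the difference was 0.32, and with means of log2 values it was -0.29, inside the cutoff. Its RNA-Seq was 1572 and 1756 in non-TG control, 1269 and 1730 in GS/DA LRRK2 TG, and 923 and 1593 in GS LRRK2 TG against a mixed control mean of 1331. The TE difference of Atp2b3 was -0.06 in GS LRRK2 TG, 0.15 in GS/DA LRRK2 TG and 0.34 in LRRK2 KO, and that of Atp2b2 was -0.05, -0.02 and 0.10.

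Atp2a2 encodes the sarco/endoplasmic reticulum calcium ATPase that loads the ER store (uc008zli.2, chromosome 5, 122903531 to 122952183, minus strand). Its footprinting values were 19271 and 14764 in non-TG control and 19805 and 14489 in GS/DA LRRK2 TG, and 15299 and 11664 in GS LRRK2 TG against a mixed control mean of 13548. In the LRRK2 KO table they were 2252 and 5523 in WT and 1992 and 6248 in LRRK2 KO. The log2 differences of the means were 0.01, -0.01 and 0.08 in this order of comparisons. RNA-Seq was 11459 and 14658 in non-TG control, 10568 and 14344 in GS/DA LRRK2 TG, with 8092 and 12352 in GS LRRK2 TG against a mixed control mean of 10721, and 6941 and 3072 in WT against 6032 and 3214 in LRRK2 KO. It differed by -0.07, -0.07 and -0.12 and TE by 0.08, 0.06 and 0.20, none past a cutoff. From the 3 non-TG control libraries, GS LRRK2 TG differed by 0.00 in footprinting and -0.03 in RNA-Seq. Atp2a2, first of the 10 genes in footprinting per kb, was thus among those that differed least in the transgenic tables.

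Of the exchangers, Slc8a2 trades sodium for calcium at the plasma membrane (uc009fgz.1, chromosome 7, 16715509 to 16745858, plus strand). Its footprinting values in GS LRRK2 TG were 4568 and 4347 against 4009, 4562 and 3405 in non-TG control, higher within both sets by 0.09 and 0.35 but overlapping across them. The difference was 0.16 from the mean of these libraries, as from the mixed control mean of 3980, and in limma with the sets as a term it was 0.20 (standard error 0.09, adjusted p = 0.494), not called. With GS/DA LRRK2 TG they were 4615 and 5377 against 5058 and 4300 in control, a difference of 0.09 made of -0.13 in set 1 and 0.32 in set 2. LRRK2 KO had 533 and 2168 and WT 582 and 2093, a difference of 0.01. Slc8a2 has the highest CDS GC content of the list, 59.7%, and its RNA-Seq was higher in set 1 than in set 2 throughout the transgenic tables: 6538 and 2108 in non-TG control, 5794 and 2358 in GS/DA LRRK2 TG, and 7559 and 2382 in GS LRRK2 TG, beside 6970 in the further library. Atp2b2, with 56.6% GC, shared this direction, with 12981 and 7841 RNA-Seq reads in non-TG control, while Atp2b1, with the lowest GC content of the list, 45.8%, had the opposite. Across all transcripts, the ratio of the RNA-Seq sets followed the GC content of the CDS in the transgenic groups, with a Spearman's rho of 0.78 to 0.802, and its part in the differences between genotypes was not tested. The TE difference of Slc8a2 was 0.18 in GS/DA LRRK2 TG, with a z of 1.47 just inside the cutoff, -0.01 in GS LRRK2 TG (0.14 from the 3 non-TG control libraries) and 0.05 in LRRK2 KO.

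Slc24a2 moves calcium and potassium against sodium and is found in neurons (uc008tmi.1, chromosome 4, 86629028 to 86876381, minus strand). Its footprinting was nearly level in the transgenic tables, with 4102 and 3322 in non-TG control, 4154 and 3257 in GS/DA LRRK2 TG, and 2878 and 2854 in GS LRRK2 TG against a mixed control mean of 2895. In LRRK2 KO it had 551 and 1645 footprinting reads, against 649 and 1241 in WT, and 960 and 559 RNA-Seq reads, against 1407 and 548. The means gave log2 differences of 0.22 for footprinting, -0.36 for RNA-Seq and 0.58 for TE (z 2.06), the only TE difference of the list past the cutoff in that table. The sets did not share these differences: footprinting gave -0.24 in set 1 and 0.41 in set 2, and RNA-Seq -0.55 and 0.03. Over the combinations of sets the TE difference ran from -0.26 to 0.96. Without the WT RNA-Seq library of set 1 the TE difference was -0.25 and the RNA-Seq difference 0.47, and without the LRRK2 KO footprinting library of set 2 the TE difference was -0.41. With means of log2 values the TE difference was 0.35 and the RNA-Seq difference -0.26, both inside their cutoffs. In limma without a term for the sets its TE was not called (adjusted p = 1), and it was not called with that term either. In the transgenic tables Slc24a2 RNA-Seq was higher in set 2, with 770 and 1907 in non-TG control, 646 and 2274 in GS/DA LRRK2 TG, and 479 and 1832 in GS LRRK2 TG against a mixed control mean of 1124. The TE difference of Slc24a2 was -0.05 in GS LRRK2 TG and -0.13 in GS/DA LRRK2 TG. From the 3 non-TG control libraries that of GS LRRK2 TG was -0.21, and 0.06 with the sets weighted equally.

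Itpr1 encodes the main inositol trisphosphate receptor of neurons (uc009ddg.1, chromosome 6, 108163112 to 108501103, plus strand). Its RNA-Seq values in GS LRRK2 TG were 9117 and 19964, against 16424, 10695 and 26260 in non-TG control. They were lower within both sets, by -0.57 and -0.40, and overlapped across them. The log2 difference was -0.29 from the mean of these libraries, -0.45 with the sets weighted equally and -0.52 from the mixed control mean of 20901, and limma with the sets as a term gave -0.48 (standard error 0.17, adjusted p = 0.213). Footprinting was 8191 and 6944 against 9170, 8169 and 7503, a difference of -0.13, and of -0.10 from the mixed control mean of 8139. The TE difference was 0.42 from the mixed control (z 1.70), mainly from RNA-Seq, and 0.16 (z 0.80) from the 3 non-TG control libraries and 0.36 (z 1.34) with the sets weighted equally, both inside the cutoff. From the mixed control it was -0.04 without the GS LRRK2 TG RNA-Seq library of set 1 and 1.09 without that of set 2. With GS/DA LRRK2 TG the RNA-Seq was 15854 and 41051, against 18358 and 29131 in control. The means gave a log2 difference of 0.26 made of -0.21 in set 1 and 0.49 in set 2, and with a footprinting difference of -0.07 the TE difference was -0.33 (z -1.496, just inside the cutoff and past it with a pseudocount of 10). Footprinting of Itpr1 was 11570 and 9475 in that control and 10797 and 9197 in GS/DA LRRK2 TG. Another pair of reads also gave that control mean, and it was set aside because it misses whole reads of the further library by 0.00529. In LRRK2 KO the footprinting was 3423 and 3272 against 3336 and 2926 in WT (difference 0.10), and the RNA-Seq was 10349 and 6957 against 6982 and 7226 (difference 0.28). The TE difference was -0.19 there.

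The ryanodine receptors release calcium from the store in response to calcium itself, and their CDS are the longest of the list, 14913 nt for Ryr2 and 14784 nt for Ryr3. Ryr2 (uc007pld.1, chromosome 13, 11645370 to 12199212, minus strand) had 1456 and 1365 footprinting reads in non-TG control and 1702 and 1637 in GS/DA LRRK2 TG. Both libraries of the genotype lay above both of the control, with log2 differences of 0.23 and 0.26 in sets 1 and 2. Ryr2 was the only gene of the list whose footprinting groups did not overlap upward in that table, where 12% of transcripts were apart upward and 12.3% downward, with 0 genes of the list in the latter. In LRRK2 KO 0 genes of the list were apart, and 12.6% of transcripts were in either direction. The Ryr2 difference of 0.24 was not called by limma, with adjusted p = 1 without a term for the sets and 0.103 with it, and its range over leaving out single libraries or sets was 0.20 to 0.29. Scaled to total CDS reads the difference was 0.12, with the shift of all transcripts given for Atp2b1. Ryr2 RNA-Seq was 812 and 3011 in control and 829 and 3581 in GS/DA LRRK2 TG, a difference of 0.21, so that TE differed by 0.04. For GS LRRK2 TG, Ryr2 footprinting was 1042 and 1237 against 1154, 983 and 1081 in non-TG control, and 1173 in the mixed control mean (difference -0.04). RNA-Seq was 437 and 3001 against 727, 406 and 2714, and 1562 in the mixed control mean (0.14), for a TE difference of -0.18. From the mean of the 3 non-TG control libraries the RNA-Seq difference was 0.42 and that of TE -0.34 (z -1.86), both past a cutoff. With the sets weighted equally they were 0.07 and 0.02, inside the cutoffs. In neither assay were the GS LRRK2 TG libraries of any of the 10 genes apart from the 3 of non-TG control, where 7.86% of transcripts were apart upward and 7.53% downward in footprinting, and 1.56% and 1.61% in RNA-Seq. In LRRK2 KO, footprinting was 1129 and 791 against 1166 and 720 in WT, RNA-Seq 900 and 1123 against 1038 and 960, and TE differed by 0.01.

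Ryr3 (uc012caz.1, chromosome 2, 112471512 to 113057253, minus strand) was the lowest of the list in footprinting per kb, with 296 to 918 recovered footprints in the libraries of the transgenic tables and 252 to 345 in those of the LRRK2 KO table. Its RNA-Seq in GS LRRK2 TG was 504 and 2048 against 1063, 882 and 2457 in non-TG control. It was lower within both sets, by -0.95 and -0.26, and overlapped across them. The log2 difference was -0.20 from the mean of these libraries, -0.43 with the sets weighted equally and -0.34 from the mixed control mean of 1617, which centring on the median of all transcripts put just inside the cutoff. In limma with the sets as a term it was -0.64 (standard error 0.17, adjusted p = 0.156). Footprinting was 596 and 448 against 535, 510 and 473, a difference of 0.05, and of 0.08 from the mixed control mean of 494. The TE difference was 0.42 (z 1.71) from the mixed control, 0.25 from the 3 non-TG control libraries and 0.50 (z 1.90) with the sets weighted equally, the second of these inside the cutoff. From the mixed control it was -0.26 without the GS LRRK2 TG RNA-Seq library of set 1, where the RNA-Seq difference was 0.34. With GS/DA LRRK2 TG the footprinting was 593 and 609 against 675 and 597, the RNA-Seq 926 and 3175 against 1188 and 2725, and the TE difference -0.15. In LRRK2 KO both assays were higher than WT in both sets. Footprinting was 449 and 236 against 373 and 196, a difference of 0.27 in each set, and RNA-Seq was 1226 and 2610 against 673 and 2117, a difference of 0.46 that is past the fold cutoff, made of 0.86 and 0.30. The groups overlapped, with larger differences between sets than between genotypes, and limma did not call either assay (adjusted p = 1 without a term for the sets). Without the WT RNA-Seq library of set 1 the RNA-Seq difference was -0.14, and without the LRRK2 KO library of set 2 it was -0.19.

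Stim1, the ER protein that senses how full the store is (uc009irl.1, chromosome 7, 109416338 to 109585362, plus strand), had 1296 and 989 footprinting reads in non-TG control and 1345 and 952 in GS/DA LRRK2 TG. The GS LRRK2 TG libraries had 1040 and 772 against 1027, 938 and 783 in non-TG control and a mixed control mean of 914. LRRK2 KO had 85 and 332, from 61 and 485 recovered footprints, against 123 and 325 in WT, so the library of set 1 was thin. The log2 footprinting differences were 0.01, -0.01 and -0.10, the RNA-Seq differences 0.06, 0.09 and 0.13, and the TE differences -0.05, -0.10 and -0.23, none past a cutoff. Within sets 1 and 2 of LRRK2 KO and WT its footprinting gave -0.52 and 0.03. Stim1 RNA-Seq was 2018 and 1848 in non-TG control, 2291 and 1732 in GS/DA LRRK2 TG, and 2058 and 1722 in GS LRRK2 TG against a mixed control mean of 1781, and 592 and 472 in WT against 743 and 422 in LRRK2 KO. Its RNA-Seq libraries were closer to each other than those of the other store genes in the transgenic tables.

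Other genes of the same families were taken from a list of 18 symbols, of which both transgenic tables list 9 and 10 are listed for LRRK2 KO. The exchanger Slc8a1 was past the TE cutoff in all 3 comparisons of deposited means, downward in GS LRRK2 TG (TE difference -0.49, z -2.50) and upward in GS/DA LRRK2 TG (0.46, z 3.10) and LRRK2 KO (0.97, z 3.48). Its libraries were far apart in RNA-Seq, with 41 and 2047 in GS LRRK2 TG against 46, 46 and 1612 in non-TG control and a mixed control mean of 746, 51 and 1788 in the control of GS/DA LRRK2 TG against 72 and 2182 in the genotype, and 411 and 118 in WT against 143 and 110 in LRRK2 KO. From the 3 non-TG control libraries its TE difference in GS LRRK2 TG was -0.52 (z -2.84), but with the sets weighted equally it was -0.04. Combining both assays of the same set gave 0.16 and 0.15. That pairing of footprinting with RNA-Seq is not settled, so the likeness of these 2 values shows no agreement between sets. With the RNA-Seq libraries of set 2 alone, its TE difference in LRRK2 KO was -0.05 or 0.04, by footprinting set. Over leaving out single libraries or sets its TE difference ran from -1.46 to 4.19, from -3.71 to 4.43 and from -0.20 to 1.61 in the order of comparisons just used. Its footprinting was 426 and 591 in non-TG control and 772 and 947 in GS/DA LRRK2 TG, without overlap, a log2 difference of 0.76. The pump Atp2b4 likewise had 812 and 1114 footprinting reads in that control and 1448 and 1873 in GS/DA LRRK2 TG, a log2 difference of 0.79. Its RNA-Seq there was 558 and 1062 against 710 and 1823, a difference of 0.64 (0.35 and 0.78 within the sets), and its TE differed by 0.14. The RNA-Seq difference of Slc8a1 there was 0.29. With the library sets as a term limma called the footprinting of both (adjusted p = 0.000322 for Atp2b4 and 0.00103 for Slc8a1, standard errors 0.07 and 0.08), and without it neither was called (adjusted p = 1, standard errors 0.20 and 0.19), nor with the opposite matching (adjusted p = 0.423 and 0.715). The fit with the sets had 1 residual degree of freedom, with sets matched by likeness in these same data, as for Atp2b1. In GS LRRK2 TG, footprinting of Atp2b4 was 757 and 1328 against 643, 712 and 882 in non-TG control, a log2 difference of 0.48, and that of Slc8a1 357 and 659 against 338, 381 and 468, a difference of 0.36. Both groups overlapped, and limma with the sets as a term did not call Atp2b4 (adjusted p = 0.353). In LRRK2 KO, Atp2b4 was past the TE cutoff upward (0.44, z 1.54) with an RNA-Seq difference of -0.46, and the inositol trisphosphate receptor Itpr2, listed there only, was past it downward (-0.41, z -1.59) on 33 to 43 recovered footprints. Over leaving out single libraries or sets the difference of Atp2b4 fell to -0.25 at its lowest and that of Itpr2 ran from -1.24 to 0.26.

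The other family genes, Atp2c1, a pump of the secretory pathway, the exchangers Slc8a3, Slc24a3 and Slc24a4, the ryanodine receptor Ryr1, the store sensor Stim2 and the store-operated channel Orai2, were not past the TE cutoff in any comparison of deposited means. From the 3 non-TG control libraries Slc8a3 was past it downward in GS LRRK2 TG (-0.28, z -1.54), and with the sets weighted equally it was not (-0.03). Their TE differences ran from -0.21 (Slc8a3) to 0.22 (Atp2c1) in GS LRRK2 TG, from -0.18 (Atp2c1) to 0.11 (Ryr1) in GS/DA LRRK2 TG and from -0.38 (Slc24a3) to 0.32 (Slc24a4) in LRRK2 KO. Ryr1, like Ryr3, had few footprints for its RNA, with 258 and 222 footprinting reads and 1936 and 831 RNA-Seq reads in the control of GS/DA LRRK2 TG. The median TE difference of the family list was 0.00 in LRRK2 KO, -0.08 in GS LRRK2 TG and 0.02 with the GS/DA transgene.

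A further list of 56 symbols held partners of the pumps and channels, calcium binding proteins and mitochondrial calcium transporters, of which the tables list 36, 36 and 38. With GS LRRK2 TG, 1 of these was past the TE cutoff upward (8.02% of all transcripts), the ER calcium binding protein Calu (TE difference 0.39), and 2 downward (3.91%), the ER membrane protein Asph (-0.29) and the calmodulin gene Calm3 (-0.31). Among the 32 whose reads were recovered, 0 were past it upward from the 3 non-TG control libraries (6.11%) and 2 downward (5.74%), Asph (-0.39) and the calcium sensor Ncald (-0.37), and with the sets weighted equally Calu was past it upward (0.58; 7.09%) and 0 downward (4.91%). With GS/DA LRRK2 TG 0 were past it upward (3.65%) and 1 downward (7.36%), Ncald (-0.37). In LRRK2 KO 4 were past it upward (6.23%), among them the calcium buffer Calb1 (0.62), Ncald (0.46) and the ER channel Tmco1 (0.47), and 1 downward (6.02%), the junctophilin Jph4 (-0.48), which ties ER to plasma membrane. For Calb1 and Ncald the LRRK2 KO differences lay in RNA-Seq, with -0.57 and -0.65, and footprinting differed by 0.04 and -0.19. The Calb1 RNA-Seq difference rested on 1 library, with 2190 and 1039 in WT and 1093 and 1079 in LRRK2 KO, and without the WT library of set 1 it was 0.06 and the TE difference -0.02. Ncald had 1316 and 836 RNA-Seq reads in WT and 668 and 703 in LRRK2 KO, and without the same WT library its TE difference was 0.10. Over leaving out single libraries or sets, the TE differences of Calu (-0.32 to 1.87), Asph (-1.19 to 2.58), Calm3 (-0.75 to 0.30), Tmco1 (-0.45 at its lowest) and, in GS/DA LRRK2 TG, Ncald (-0.86 to 0.40) turned direction, and that of Jph4 ran from -0.96 to -0.09. None of the mitochondrial genes, of which the tables list 8, 8 and 9, was past the cutoff. The median TE difference of this list was 0.00 and -0.01 in the transgenic tables, in the order used for the counts, and 0.15 in LRRK2 KO, beside 0.02 over all transcripts of the LRRK2 KO table.

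The tissue label was read against marker genes. Of 14 symbols for striatal projection neurons 12 are listed in each table (Drd1 and Penk1 are listed under other symbols), led by Ppp1r1b with 42124 footprinting reads in the control of GS/DA LRRK2 TG. Their summed footprinting was 156440 in that control and 127492 in GS/DA LRRK2 TG, a log2 difference of -0.30, the same as that of Atp2b1. By library, over the 11 markers resolved, it was 132759 and 111398 in control and 116664 and 90648 in the genotype. For GS LRRK2 TG the sum was 108574 against 117116 in the mixed control (-0.11), with 100966 and 72579 by library against 105215, 105012 and 88212 in non-TG control (-0.20), and in LRRK2 KO 35251 against 33876 (0.06). In bulk tissue, fewer cells of a type and less RNA per cell cannot be told apart, and the part of this shift in the Atp2b1 difference was not tested.

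Cortical neuron markers were higher than control in GS/DA LRRK2 TG. The 4 of 7 listed there summed to 1517 footprinting reads in control and 3550 in the genotype, a log2 difference of 1.23, and to 1243 and 1792 against 2765 and 4335 by library. Slc17a7 led them with footprinting means of 833 and 2047, and their summed RNA-Seq was 1731 and 3597. For GS LRRK2 TG the sum was 1529, from libraries of 575 and 2483, against 985, 750 and 1419 in non-TG control (log2 difference 0.54), and against 1757 in the mixed control (-0.20), and in LRRK2 KO, with all 7 listed, 2436 against 2598 (-0.09). Their RNA-Seq in GS LRRK2 TG summed to 1161 and 1550 by library, against 2176, 1232 and 928 in non-TG control (-0.09). From the mixed control sum of 2159 the difference was -0.67, with 0 of 4 markers higher, and in LRRK2 KO the sums were 3499 and 4199 (-0.26). The RNA-Seq of Atp2b1, Itpr1 and Ryr3 was also below the mixed control in GS LRRK2 TG, and within the sets below non-TG control, where these markers were lower in set 1 and higher in set 2. The RNA-Seq of striatal projection neuron markers was lower too, with sums of 102797 in GS LRRK2 TG and 111962 in the mixed control (-0.12). Over the 10 markers resolved, it was 57209 and 43156 by library, against 61226, 61035 and 50593 in non-TG control (-0.20). The part of either marker list in the RNA-Seq of these genes was not tested. Cortical neuron markers stood above control in both GS/DA LRRK2 TG libraries, as did Ryr2, Atp2b4 and Slc8a1, and their part in those differences was not tested.

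Choroid plexus markers, 2 of 4 listed and led by Ttr, varied by library: they summed to 17613 and 1489 footprinting reads in the control of GS/DA LRRK2 TG and to 1440 and 5525 in the genotype, with sums of means of 4239 in the mixed control and 960 in GS LRRK2 TG, and 149 and 148 in WT and LRRK2 KO. The non-TG control libraries on that scale gave 13958, 531 and 1179, and GS LRRK2 TG 682 and 1239. Astrocyte markers (6 of 6, led by Slc1a2), oligodendrocyte markers (7 of 7) and microglial markers (5 of 6) differed in summed footprinting by 0.08, 0.16 and 0.11 in GS LRRK2 TG from the mixed control (0.17, 0.15 and 0.15 from the 3 non-TG control libraries), by 0.13, 0.02 and 0.05 in GS/DA LRRK2 TG, and by 0.05, -0.01 and 0.27 in LRRK2 KO. Their summed RNA-Seq differed by -0.02, 0.12 and 0.12, by 0.24, 0.08 and 0.15, and by -0.39, -0.09 and 0.31 in the same order. Astrocyte markers gave 5613 RNA-Seq reads in WT and 4287 in LRRK2 KO, with 1 of 6 higher, and 6810 and 4415 against 4367 and 4208 by library, a difference in the same direction as those of Atp2b3 and Slc24a2 RNA-Seq, and their part in these was not tested. Of 4 midbrain dopamine neuron markers only Ddc is listed, with 139 to 197 footprinting reads in the transgenic tables and 56 and 39 in the LRRK2 KO table, and Th, Slc6a3 and Slc18a2 are not. Of 6 cerebellar symbols only Calb1, which striatal neurons also express, is listed, with 5970 and 6004, 8085 and 6315, and 2099 and 2164 footprinting reads in control and genotype, in the order of comparisons used above for TE.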

How the data were processed

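Footprinting and RNA-Seq values of caudate putamen were analysed for each genotype against its own control. The authors aligned reads to mm9, counted them in the CDS over the isoforms of each gene, left out transcripts below a read minimum, and deposited for each group the mean of read counts divided by DESeq size factors, a signal without an error, in 3 tables normalized separately. The submitters' processing notes name CASAVA 1.8, TopHat2 2.0.11, Bowtie2 2.2.2 and DESeq 1.20. The authors also deposited the 5′UTR folding energy in kcal/mol, taken from UCSC annotation. Their columns of TE, TE difference and its z score hold the study's own comparison and were not used.

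TE was the log2 of the footprinting mean over the RNA-Seq mean, with a pseudocount of 0 and no filter, and z scores were taken within a table. Library reads were recovered from the means, which are sums of whole multiples of 2 step sizes, or of 5 in the columns set against GS LRRK2 TG, where the reads of the further library follow from those of the other 4. Between 98.5% and 99.9% of transcripts per column of 2 libraries had 1 such pair, against 0% to 0.843% once the values were shifted by a constant. Where several pairs were possible, the pair inside the central 99% of library ratios was kept. Both this rule and the library matching were set with the data in view. The tests were fitted within a table with limma 3.58.1 in R 4.3.3 (eBayes with trend) on log2 of normalized reads plus 10, over all transcripts resolved, with Benjamini-Hochberg adjustment, a threshold of 0.05 and an interaction of genotype and assay for TE. That interaction treats footprinting and RNA-Seq libraries as independent, although both kinds came from the same lysates, because their pairing is not settled. No count model was run. Other steps used Python 3.11.15, numpy 2.4.6, pandas 2.3.3 and scipy 1.17.1. Recovery of reads from means of 2 libraries and the limma fits with given sets were tested on simulated data. Recovery from means of 5 libraries and the matching of libraries by likeness were not. Positions and the length and GC content of the CDS are those of the NCBIM37 (mm9) annotation, matched for 97.1% of transcripts of the transgenic tables and 97.0% of the LRRK2 KO table.

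The genes named are all members, all listed genes of the family list, the genes of the calcium handling list past the TE cutoff, the most abundant gene of each marker list, and Lrrk2. Some genes that this rule takes are not reported here. The members and lists were chosen with earlier results of these data known. The alternatives were a pseudocount of 10, centring on the median over all transcripts, means of log2 values, scaling to total CDS reads, a minimum group mean (8 on the log2 scale), z cutoffs of 1 and 2, library sets as a term under both matchings, a control of the 3 non-TG libraries for GS LRRK2 TG, other pairs of reads and leaving out single libraries or sets. Ventral midbrain libraries were not analysed here.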

Additional observations from a re-analysis of the deposited data

How the results depend on the processing

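No paired analysis was possible by replicate number because the columns of group means carry none. In GS LRRK2 TG, limma was run against the 3 non-TG control libraries only. A pseudocount of 10, centring and means of log2 values turned the direction of no gene that was past a cutoff, but they ended or added some calls. Centring took the count past the RNA-Seq cutoff in GS LRRK2 TG from 3 (11.2% of all transcripts in either direction) to 2 (10.6%), as scaling to total CDS reads did (9.92%). Scaling to total CDS reads moved the median footprinting difference of the list in GS/DA LRRK2 TG to -0.12, as it moved that of all transcripts by -0.12.

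With a z cutoff of 2 the count of genes upward in GS LRRK2 TG went from 2 to 0 (3.72% of all transcripts). With a cutoff of 1 it was 3 upward (15.6%) and 1 downward (12.9%) in GS LRRK2 TG, 2 upward (11.5%) and 2 downward (13.3%) in GS/DA LRRK2 TG, and 2 upward (14.3%) and 0 downward (14.8%) in LRRK2 KO. With group means of at least 8 on the log2 scale, which left out Stim1 in LRRK2 KO, it was 1 upward (3.19%) and 1 downward (7.58%) in GS/DA LRRK2 TG. With library sets as a term limma called 169 transcripts in the footprinting and 1 in the RNA-Seq of GS/DA LRRK2 TG, 9 and 11 in LRRK2 KO, and 3 in the footprinting and 1 in the TE of GS LRRK2 TG, against 0 without it, and with the opposite matching 7 in the footprinting of GS/DA LRRK2 TG and 0 in GS LRRK2 TG. The causes were not tested.

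Leaving out libraries or sets moved the list medians of footprinting, RNA-Seq and TE over -0.20 to 0.08, -0.86 to 0.23 and -0.24 to 0.75 in GS LRRK2 TG, -0.19 to 0.22, -0.49 to 0.41 and -0.41 to 0.45 in GS/DA LRRK2 TG, and -0.78 to 0.76, -0.43 to 0.37 and -0.59 to 0.81 in LRRK2 KO. The following were chosen after the data were seen. With means of log2 values the counts in LRRK2 KO went from 1 to 0 upward for TE (5.89% of all transcripts) and from 3 to 1 for RNA-Seq (14.7%), and in GS LRRK2 TG from 2 to 1 upward for TE (7.83%). In GS/DA LRRK2 TG a pseudocount of 10 put 1 gene past the TE cutoff downward (7.36%) and scaling to total CDS reads 1 past the footprinting cutoff (6.81%). Against the 3 non-TG control libraries the counts in GS LRRK2 TG were 0 upward (6.11%) and 1 downward (5.74%) for TE and 1 for RNA-Seq (10.7%), and with library sets weighted equally 1 upward for TE (7.09%). Over leaving out single libraries, counts past the TE cutoff ranged over 0 to 3 upward and 0 to 2 downward in GS LRRK2 TG from the mixed control. In the other comparisons only whole sets were left out for the counts. These ranged over 0 to 2 upward and 0 to 1 downward in GS/DA LRRK2 TG, and 0 to 1 each way in LRRK2 KO. Counts past the fold cutoff ranged over 0 to 1 for footprinting and 2 to 8 for RNA-Seq in GS LRRK2 TG from the mixed control. Over whole sets they ranged over 0 to 2 and 1 to 2 in GS/DA LRRK2 TG, and 1 to 2 and 0 to 5 in LRRK2 KO. Loss of single libraries was not counted there. It put list medians past this cutoff in LRRK2 KO footprinting (-0.78 and 0.76) and GS/DA LRRK2 TG RNA-Seq (-0.49 and 0.41). More genes than these counts give were then past it. Genes past a cutoff whose direction turned were, in GS LRRK2 TG from the mixed control, Atp2b1 RNA-Seq (-1.59 to 0.25), Ryr3 RNA-Seq (-1.68 to 0.34), Itpr1 TE (-0.04 to 1.09) and Ryr3 TE (-0.26 to 1.76), and in LRRK2 KO, Atp2b3 RNA-Seq (-0.82 to 0.32), Slc24a2 RNA-Seq (-0.89 to 0.47), Ryr3 RNA-Seq (-0.19 to 1.51) and Slc24a2 TE (-0.41 to 1.16). Ryr2, past both cutoffs from the 3 non-TG control libraries, also turned there in RNA-Seq (-1.55 to 1.60) and TE (-1.51 to 1.64). Loss of a library from a group of 2 leaves that group in a single set, so these ranges include the difference between sets. Within sets 1 and 2, the RNA-Seq differences of GS LRRK2 TG from non-TG control shared a direction for Atp2b1 (-0.81 and -0.42) and Ryr3 (-0.95 and -0.26). Those of Ryr2 (-0.37 and 0.14) did not. With other pairs of reads, which leave no whole reads of the further library, the Atp2b1 footprinting difference of GS/DA LRRK2 TG was -0.39, -0.44 or -0.25 and not called.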
